A study of Rattus norvegicus with 2 samples.

Results

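Neurofilament, peripherin, vimentin and growth-state transcripts were examined in the sympathetic neurons of the rat stellate ganglion, the ganglion that holds most of the neurons innervating the heart. The group was chosen by name and holds 10 genes (Nefl, Nefm, Nefh, Ina, Prph, Vim, Gap43, Basp1, Uchl1 and Sprr1a), each found by its symbol among 25395 genes with a value. Stellate ganglia of male rats aged 5 to 6 weeks were dissociated with collagenase and trypsin, and single cells were sequenced in droplets (scRNAseq), with 1 library for the normotensive Wistar strain and 1 for the prehypertensive SHR (spontaneously hypertensive rat). SHRs are inbred rats selected for high blood pressure, and Wistar rats are a separate stock. How many animals went into each library is not given in the sources used here. No agent, diet or engineered allele is named for either strain, and both libraries share the enzymes of dissociation.

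Intermediate filaments are rope-like polymers that fill axons and set their calibre. Mature myelinated axons rely on the neurofilament triplet, built from the light, medium and heavy subunits that Nefl, Nefm and Nefh encode. The related subunit alpha-internexin, encoded by Ina, joins the same polymers. Peripherin, encoded by Prph, is the intermediate filament typical of peripheral neurons, sympathetic neurons included, while vimentin, encoded by Vim, is the filament of fibroblasts, glia, endothelium and immature neurons. Gap43 and Basp1 encode acidic membrane-bound phosphoproteins of the growth cone and the presynaptic terminal. Uchl1 encodes the abundant neuronal ubiquitin hydrolase also called PGP9.5, and Sprr1a encodes a small proline-rich protein of epithelia that axotomised neurons switch on.

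The deposited value of a gene is the natural log of 1 plus its mean count per 10000 counts of a cell, taken over the sympathetic neurons of a library. Levels are given here as that mean per 10000, and differences as SHR minus Wistar of the log2 of 1 plus the mean. The 16 sympathetic neuron markers examined, among them Slc6a2 (noradrenaline transporter), Th and Dbh, all averaged at least 0.1 per 10000. In SHR 12 of them were lower, with a median difference of -0.09 log2 units. Ddc (-0.86) and Dbh (-0.61) were lower by 0.5 or more, and 0 markers were higher by as much. Of all genes with an average of at least 0.1 per 10000, 2.15% were lower by 0.5 or more. Of all genes with such an average 65.6% were lower, and of those of 1 or more per 10000 45.5% were. The means of both libraries sum to 10000, and the number of neurons and the depth of a neuron are unknown. The smallest mean above 0 was 0.000140 per 10000 in Wistar and 0.000391 in SHR, so the weight of a single count differed between the libraries. With 1 library per strain no spread between replicates, interval or test of the strains could be given for any value that follows, and neighbours in an order of levels cannot be told apart by their error. Libraries of this kind count molecules at their 3' ends, so a mean is per molecule captured and was not divided by transcript length.

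Prph was by far the most abundant of the 10 transcripts. It averaged 58.0 per 10000 in Wistar neurons against 67.6 in SHR neurons and held rank 12 and rank 14 of all transcripts. Uchl1 followed with 25.0 in Wistar and 30.8 in SHR. Nefl, Basp1 and Gap43 came next in that order in Wistar, and Gap43 stood ahead of Nefl and Basp1 in SHR. Nefl was at 19.2 and 20.4. Nefm, Ina and Vim lay between 1 and 10 per 10000 in both strains, Nefh lay below 1, and Sprr1a was listed close to 0. Together the 10 genes made up 1.47% of the counts of a Wistar neuron and 1.70% of those of an SHR neuron.

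**Figure D1:**
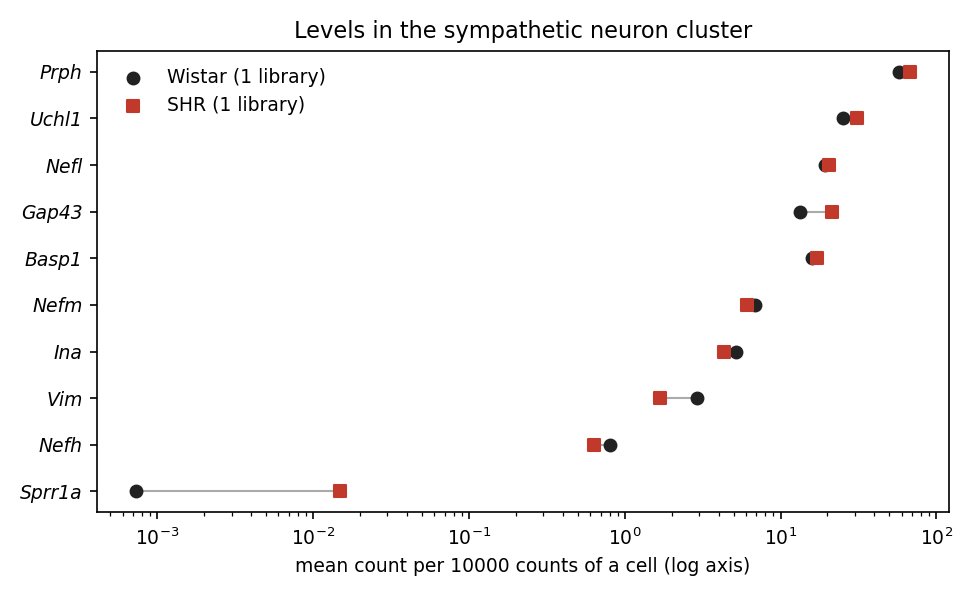
Mean count per 10000 counts of a cell (log axis) of the 10 genes in the sympathetic neuron cluster of the Wistar library (circles) and the SHR library (squares), ordered by the average of both. Each symbol is 1 library and has no error bar. Prph is highest in both, Gap43 and Vim show the widest gaps among the 9 genes above 0.1 per 10000, and Sprr1a is near 0.

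Of the 9 genes that averaged at least 0.1 per 10000, 5 were higher and 4 were lower in SHR, although Nefl, Prph and Basp1 turned lower when genes of similar level were centred at 0, as described further on. Over all 7621 genes past that minimum, 34.4% were higher and 65.6% were lower. Only Gap43 and Vim differed by 0.5 or more on the log2 scale, the size used here in place of a test, and they did so in opposite directions. Gap43 no longer reached it with the centring by level (0.43), nor Vim with the median of all genes set to 0 (-0.48). That size was reached by 1.23% of all genes in the higher direction and by 2.15% in the lower direction. These shares depend on the pseudocount of 1, since at a pseudocount of 0.1 they were 5.21% and 21.9%, and a ratio of means of 1.5 was reached by 5.22% and 26.5%. The median difference of the 9 genes was 0.08, against -0.05 for all genes past the minimum, and it became -0.11 when each level was centred at 0.

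The neurofilament triplet as a sum was nearly level between the strains, at 26.9 per 10000 in Wistar and 27.2 in SHR, a change of 1.14%. The 3 subunits did not share a direction. Nefl, the subunit on which the polymer is built, had 6.35% more transcript in SHR, a log2 difference of 0.08 that became -0.14 with the centring by level. Nefm went from 6.88 per 10000 in Wistar to 6.13 in SHR, with a log2 difference of -0.14. Nefh, whose long phosphorylated tail is the mark of large mature axons, went from 0.800 to 0.632, also with a log2 difference of -0.14. In proportion to its level the Nefh difference was the larger of these, at -20.9% against -10.8% for Nefm.

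Ratios between subunits within a library are unchanged when all of its means are multiplied by the same factor, though not when each cell is scaled otherwise. There were 2.79 Nefl transcripts for each Nefm transcript in Wistar and 3.33 in SHR. For each Nefh transcript there were 24.0 Nefl transcripts in Wistar and 32.3 in SHR. The balance of captured molecules in both libraries was thus far on the side of the light subunit. How fully the 3' end of each gene was captured and counted is unknown. With the centring by level the differences were -0.14 for Nefl, -0.17 for Nefm and -0.08 for Nefh. These values cannot be read as ratios of means, because the pseudocount of 1 shrinks the difference of a gene of low level. Before the centring, Nefh had -0.14 at that pseudocount and -0.33 at 0.01, while Nefl had 0.08 and 0.09. How the ratios between subunits would change with level was therefore not tested. Nefl and Nefm are direct neighbours on rat chromosome 15, with 0 protein-coding genes between them in the RefSeq annotation of the GRCr8 assembly, and their differences had opposite signs before that centring and the same sign after it.

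Ina went from 5.21 per 10000 in Wistar to 4.34 in SHR, or 0.833 times as much, a log2 difference of -0.22. It kept company with Nefm more than with Nefl, since the ratio of Nefm to Ina was 1.32 in Wistar and 1.41 in SHR while that of Nefl to Ina was 3.68 and 4.70. Prph had a log2 difference of 0.22, or 16.7% more transcript in SHR, which became -0.01 with the centring by level. The 6 intermediate filament genes summed to 92.9 per 10000 in Wistar and 100.8 in SHR. Prph made up 62.4% of that sum in Wistar and 67.1% in SHR, a gain of 4.70 percentage points. Nefl held 20.6% and 20.2%, Nefm 7.40% and 6.08%, Ina 5.61% and 4.31%, and Nefh 0.861% and 0.627%. Every filament gene other than Prph therefore had a smaller share in SHR, which for Nefl was a loss of less than 1 point.

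**Figure D2:**
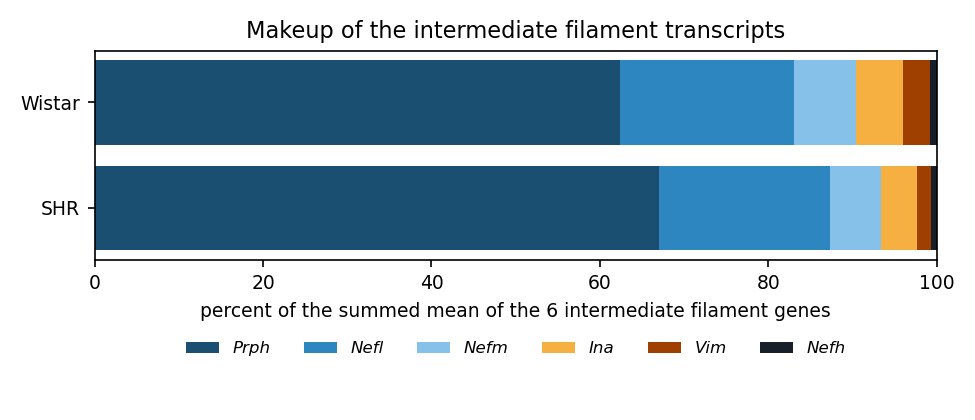
Share of each gene (percent, horizontal axis) in the summed mean count of the 6 intermediate filament genes, 1 bar per library. The Prph segment widens from 62.4% in Wistar to 67.1% in SHR, and the Nefm, Ina and Vim segments narrow.

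Vim was the filament gene with the widest gap. It averaged 2.89 per 10000 in Wistar against 1.69 in SHR, or 0.585 times as much, a log2 difference of -0.53, the lowest of the group. Its share of the filament transcripts went from 3.11% to 1.68%. For each Vim transcript there were 20.1 Prph transcripts in Wistar and 40.0 in SHR. Vim is also strongly expressed by the other cells of the ganglion, and their markers in the neuron cluster were lower in SHR as well. Satellite glia and Schwann cell markers summed to 21.0 per 10000 in Wistar and 12.4 in SHR. Of the 14 with a line, 12 had a lower mean in SHR. Fibroblast markers summed to 3.69 and 1.86, with a lower mean in SHR for 9 of 10. With no minimum, 43.9% of all 25395 genes had a lower mean in SHR, a share that also counts genes listed at 0. Past the minimum, 7 of 8 glial markers and 4 of 4 fibroblast markers were lower, against 65.6% of all genes. Immune markers summed to 1.32 and 0.418, endothelial markers to 0.285 and 0.119, and smooth muscle and pericyte markers to 0.137 and 0.0787. Single defining markers were low in both libraries, as for Sox10 of glia with 0.0914 and 0.0169 and Cdh5 of endothelium with 0.0180 and 0.0116, and Kcnj10 of satellite glia was listed at 0 in SHR. Pmp22 and Apoe, with 11.3 and 6.24 per 10000 in Wistar against 8.58 and 2.23 in SHR, held most of the glial sum. What part such RNA has in the Vim difference was not tested.

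Gap43 showed the reverse. It averaged 13.3 per 10000 in Wistar against 21.5 in SHR, which is 61.7% more and a log2 difference of 0.65. That difference was number 21 from the top among the 7621 genes past the minimum, and the gene moved from rank 59 to rank 34 in level. Basp1, the close functional relative of Gap43, was at 15.9 and 17.2, with a log2 difference of 0.11 that became -0.11 with the centring by level. The ratio of Gap43 to Basp1 was accordingly 0.838 in Wistar and 1.25 in SHR. Uchl1 had 23.4% more transcript in SHR, a log2 difference of 0.29. Gap43 thus had a wider gap than Basp1 and Uchl1. The 4 growth-state genes summed to 54.1 per 10000 in Wistar and 69.5 in SHR, and Gap43 made up 8.19 of the difference of 15.4 between these sums.

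Sprr1a was the lowest of the 10 genes and did not reach the minimum. Its listed mean was 0.000731 per 10000 for Wistar and 0.0150 for SHR. Means that 3 or more genes share exactly can arise where those genes have the same few counts in the same cells, and their median gives the rough weight of a single count. The Sprr1a mean was 2.24 times that median in Wistar and 16.5 times in SHR. Both levels thus rest on few counts and no fold is given. The log2 difference of 0.02 is set by the pseudocount, and was 0.19 at a pseudocount of 0.1 and 1.22 at 0.01. Of the related genes, Sprr1b, Sprr3 and Sprr2d were listed at 0 in both libraries, and Tgm1, a transglutaminase that cross-links such proteins, at 0.0162 in Wistar and 0 in SHR.

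RefSeq promoter windows were at hand for 6 of the 10 genes in the GRCr8 assembly, which is not the Rnor_6.0 build behind the counts. In 4 of them the window starts at the outer end of the gene, and the bases just upstream are shown for these. They set Sprr1a, listed close to 0 here, beside 3 genes with a mean above 1 per 10000 in both libraries. Letters in capitals mark TGANTCA, the core word bound by AP-1 factors, and TATAAA, the TATA box word. The windows are chr2:180752626-180752775 on the minus strand for Sprr1a, chr17:81577161-81577260 on the plus strand for Vim, chr1:255838029-255838128 on the plus strand for Ina and chr2:77594298-77594397 on the minus strand for Basp1, each read 5′ to 3′ up to the base before the start.
Sprr1a: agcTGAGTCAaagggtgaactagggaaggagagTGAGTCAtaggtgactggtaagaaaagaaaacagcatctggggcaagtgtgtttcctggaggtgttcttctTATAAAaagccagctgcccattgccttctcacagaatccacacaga
Vim: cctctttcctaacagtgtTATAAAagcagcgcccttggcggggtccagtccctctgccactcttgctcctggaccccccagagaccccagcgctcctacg
Ina: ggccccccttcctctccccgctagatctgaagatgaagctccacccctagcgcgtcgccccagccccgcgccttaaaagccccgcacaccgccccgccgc
Basp1: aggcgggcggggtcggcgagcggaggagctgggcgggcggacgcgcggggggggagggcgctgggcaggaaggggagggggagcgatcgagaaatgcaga

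Searched on both strands over the 250 bases before the start, TGANTCA occurred 2 times for Sprr1a, at 147 and 117 bases upstream, and in no other of the 6 windows. It was found in 6.34% of all 33469 windows of that length. TATAAA occurred once each for Sprr1a, Vim, Prph and Uchl1, and in 12.9% of all windows. The GC box word GGGCGG, which overlaps neither of these words, occurred 4 times for Basp1, with one pair of matches overlapping each other, 2 times for Ina and once in each of the other windows, and 30.5% of all windows held it. These matches describe the letters of the reference only, and the scRNAseq data carry no measurement of binding there.

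The differences of the group were then read against genes of similar level, because the median difference was larger at higher levels. It was -0.06 for 5945 genes with an average of 0.1 to 1 per 10000, 0.03 for 1582 genes of 1 to 10, and 0.23 for 94 genes of 10 or more. The 5 genes that were higher in SHR (Prph, Uchl1, Nefl, Gap43 and Basp1) all averaged 10 or more, a band in which 70.2% of genes were higher. Of these, Gap43 and Uchl1 exceeded the median of their band. Prph lay beside it, and Nefl and Basp1 lay below it. Gap43 was number 8 of 94 from the top of its band, where 21.3% of genes were higher by 0.5 or more. Vim, Ina and Nefm belonged to the band of 1 to 10, in which 46.5% of genes were lower. Vim was number 84 of 1582 from the bottom of its band, and 5.88% of that band was lower by 0.5 or more. Nefh belonged to the band of 0.1 to 1, in which 71.2% of genes were lower. With the median of each band set to 0, an alternative chosen after seeing the data, Gap43 had a difference of 0.43, below the size of 0.5, and Vim one of -0.56, Uchl1 had 0.07, and Prph, Nefl and Basp1 had -0.01, -0.14 and -0.11. The directions of these last 3 genes therefore turned with this centring.

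**Figure D3:**
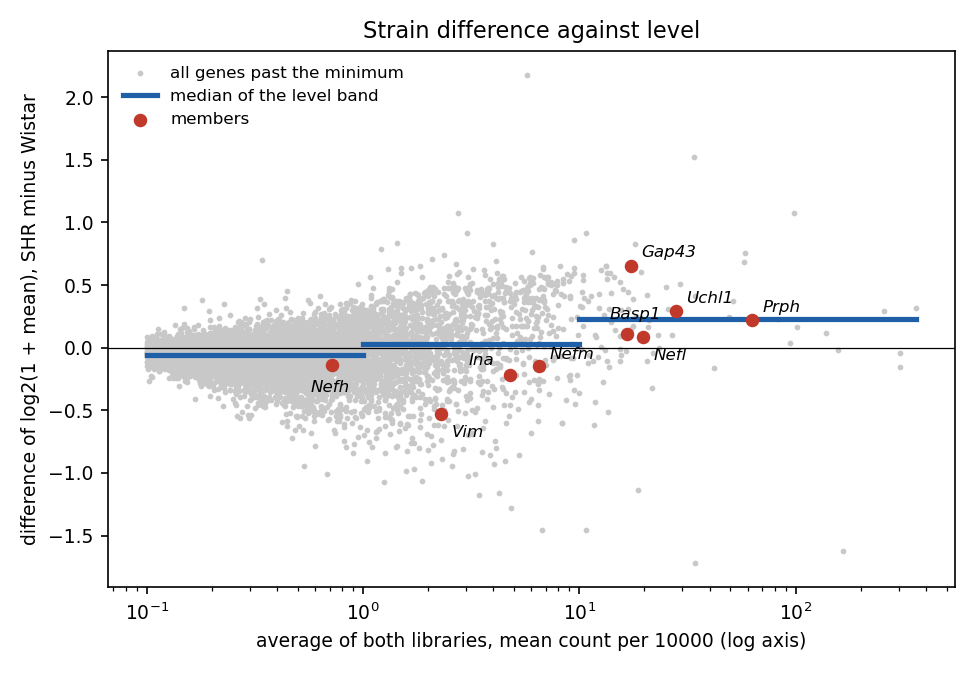
Difference of log2(1 + mean), SHR minus Wistar, against the average of both libraries (mean count per 10000, log axis) for 7621 genes (grey) and the 9 group members past the minimum (red), with the median of each of 3 level bands as a blue line. The blue line climbs from -0.06 to 0.23, Gap43 sits above it and Vim below it.

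Other intermediate filament genes and the linkers that tie filaments to the rest of the cytoskeleton were mostly low or lower in SHR. Of 17 listed genes, 16 had a line and 5 passed the minimum, of which 4 were lower and 1 higher, with a median of -0.46. Of all genes past the minimum 65.6% were lower, and of those of 1 or more per 10000 45.5% were. Dst (dystonin, a spectraplakin linker) was at 14.3 per 10000 in Wistar against 8.98 in SHR, a log2 difference of -0.61. Macf1, its closest relative, was at 3.31 and 1.32, a log2 difference of -0.89. The nuclear lamin gene Lmna was at 2.69 and 2.45, and Synm (synemin) was the gene higher in SHR, at 0.862 and 1.12. Gfap and Nes, filament genes of glia and progenitors, were at 0.0456 and 0.0225 in Wistar and at 0.00852 and 0.00446 in SHR.

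Genes that move, phosphorylate or clear neurofilaments gave 17 lower and 8 higher in SHR among the 25 of 29 that passed the minimum. Of all genes past it 65.6% were lower, but of those of 1 or more per 10000 only 45.5% were. With the median of each level band set to 0, 16 of the 25 were lower, against 50% of all genes. The median of the list was -0.10, and none of its genes differed by 0.5 or more. Map1b, a microtubule protein of growing axons, was at 44.3 per 10000 in Wistar and 39.3 in SHR. Klc1, a light chain of the kinesin motor that carries neurofilaments, was at 12.5 and 11.8. Dync1h1, the heavy chain of the dynein motor, had the lowest difference, -0.49, with 6.24 and 4.15. Hspb1, a small heat shock protein that guards filaments from aggregation, had the highest, 0.43, with 10.4 and 14.3. Ppp2ca, the catalytic subunit gene of a phosphatase that all cells use, was listed at 0 in both libraries, so that a value of 0 here is not evidence of absence.

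Of 20 listed genes related to Gap43 in structure or signalling, 16 passed the minimum, with a median of 0.10. Of these, 10 were higher and 6 lower in SHR, against 34.4% of all genes higher. With the median of each level band set to 0, 6 of the 16 were lower, against 50% of all genes. With no minimum, 10 of the 20 had a lower mean in SHR. Stmn2, a tubulin-binding phosphoprotein of the growth cone, was at 45.3 per 10000 in Wistar and 53.7 in SHR. Calm3, which encodes the calmodulin that GAP43 binds, was at 5.60 in Wistar and at 7.29 in SHR. Pcp4, another calmodulin-binding protein with an IQ motif, went the other way, at 7.26 and 2.40, a log2 difference of -1.28. The membrane proteins nearest to Gap43 and Basp1 in kind, Marcks and Marcksl1, were named after their values were seen, with log2 differences of 0.09 and 0.36.

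Regeneration-associated genes, those known to be induced in neurons after axotomy, split into 12 higher and 17 lower in SHR among the 29 of 45 past the minimum. Their median was -0.06. Lower in SHR were 65.6% of all genes past the minimum and 45.5% of those of 1 or more per 10000. Among the most abundant, the tubulin genes Tuba1a and Tubb3 had log2 differences of 0.23 and 0.37, beside the median of 0.23 for all genes of 10 or more per 10000. Tuba1a was at 76.5 per 10000 in Wistar against 89.7 in SHR, and Tubb3 at 44.8 and 58.4. Lgals1 (galectin-1) had the highest difference of the list, 0.82, with 12.8 and 23.4. Chl1, an adhesion molecule, had the lowest, -0.68, with 4.18 and 2.22. The axotomy-induced transcription factors Atf3 and Jun, named after their values were seen, were at 1.68 and 3.33 in Wistar and at 1.78 and 2.56 in SHR. Gch1 and Cd44 of the same list, also named afterwards, were at 0.220 and 0.749 in Wistar and at 0.669 and 1.07 in SHR. Gal and Vip, peptides that rise after axotomy of sympathetic neurons, were also named afterwards and did not reach the minimum. They were at 0.151 and 0.150 in Wistar and at 0.0224 and 0.0134 in SHR.

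Ubiquitin genes and hydrolases, the partners of Uchl1, were evenly split, with 6 higher and 6 lower in SHR and a median of 0.04. By comparison, 65.6% of all genes past the minimum were lower, and 45.5% of those of 1 or more per 10000. The deubiquitinase gene Usp9x was at 4.40 per 10000 in Wistar against 3.06 in SHR, a log2 difference of -0.41. The ubiquitin-ribosomal fusion gene Rps27a went the other way, at 0.791 and 1.39, with a log2 difference of 0.42. Rps27a and the tubulin genes have close copies elsewhere in the genome, so their counts are less certain. Ribosomal protein transcripts as a whole were also higher in SHR, at 3.32% of all counts against 2.29% in Wistar.

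**Figure D4:**
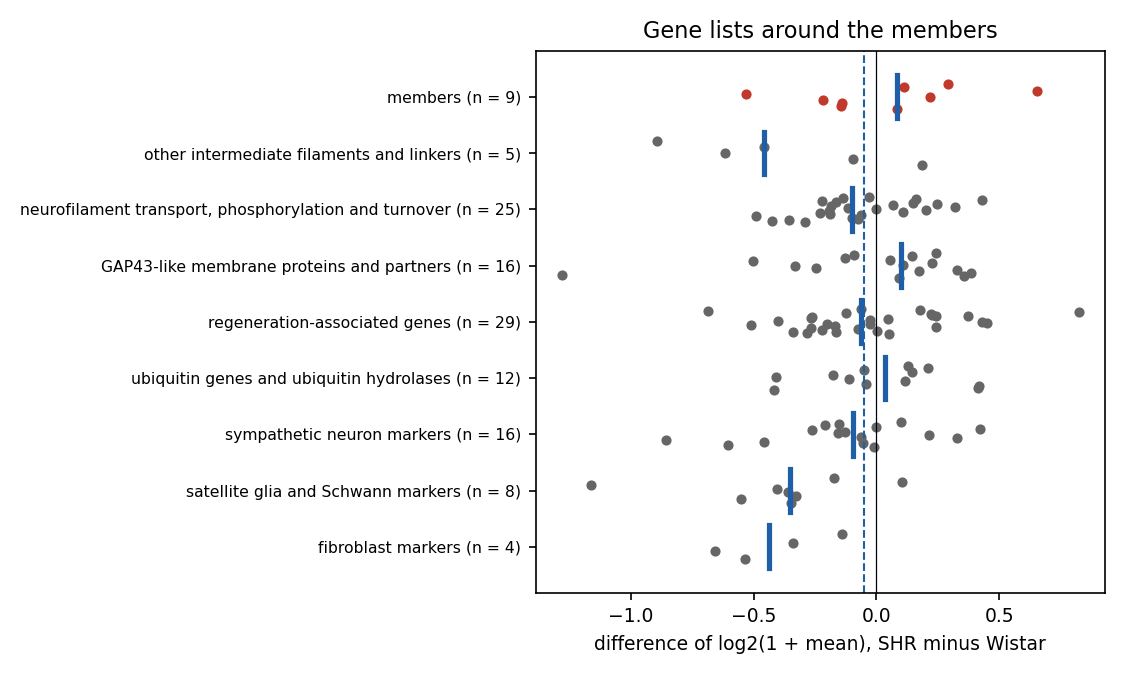
Difference of log2(1 + mean), SHR minus Wistar, of each gene past the minimum in the group (red) and in 8 lists (grey), with the median of each list as a blue bar and that of all 7621 genes as a dashed line. Stmn2 and Hspb1 each stand in 2 lists. Most filament linkers and glial markers and all 4 fibroblast markers lie left of 0, with Synm and Glul to its right, and Gap43 is the rightmost of the red points.

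The transcripts whose 2 values lay nearest to those of each member were found by the distance between natural log values over both libraries, which is a likeness of level more than of pattern. Gap43 lay nearest to Cd24 (14.0 and 22.4 per 10000 in Wistar and SHR, distance 0.06) and Lgals1 (distance 0.09). Prph had no near neighbour, the closest being Sncg at a distance of 0.27 and Tubb3 at 0.29. Vim lay near Kiaa0408L, and Nefh near Plekhj1. For Nefl these were Atp1b1 and Tubb2b, for Nefm Scg5 and Cd81, for Ina Eno1 and Saraf, for Basp1 Syt4 and Ndrg4, and for Uchl1 Atp6v0c and Tubb5.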

How the data were processed

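Single cell 3' (version 3) droplet libraries were sequenced on an Illumina HiSeq instrument. The submitters' processing notes name Cell Ranger 3.0.2, Seurat 3 and the rat build Rnor_6.0. The paper describes 2 populations of sympathetic neurons, of which 1 also expressed neuropeptide Y. Their shares in the means used here are not known. The authors selected the sympathetic neuron cluster and deposited 1 natural log value per gene and library. Each is ln(1 + m), where m averages over the neurons a gene's count after every neuron was scaled to 10000 counts. Filters on cells and the treatment of doublets are not given in the sources used here. A further deposited table holds the authors' own comparison of the strains (fold changes and p-values) with 2 columns of shares of cells that name no sample, and was not used.

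Values were converted back with the exponential minus 1 in Python 3.11.15 (NumPy 2.4.6, pandas 2.3.3). Repeated names (4 lines) were dropped. The minimum was an average of 0.1 per 10000 over both libraries, the pseudocount 1 and the size 0.5 on the log2 scale. The difference function was checked on simulated data. The members and lists were chosen with earlier results of these data known. Beside the members, the rule named the 3 most abundant genes and the extremes of each list and the 2 nearest genes of each member. Some genes under this rule are left out of the text. Other genes named were chosen after their values were seen. Depth is unknown, so no counting error can be given. Alternatives were other pseudocounts, totals, centrings, minimums and sizes.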

Additional observations from a re-analysis of the deposited data

How the results depend on the processing

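No paired analysis was possible because only 1 library per strain was analysed here. With a pseudocount of 10, which shrinks every difference by construction, 0 members were lower and 0 higher by 0.5 or more, and the same counts of 0 and 0 held at a size of 1. With the median of all genes set to 0, 0 members were lower by 0.5 or more, since this adds 0.05 to each gene and brings Vim to -0.48. With the median of each level band set to 0, chosen after seeing the data, 7 members were lower and 2 higher, and 0 were higher by the size. With no minimum, 12 genes of the filament and linker list, 10 of the list around Gap43 and 30 regeneration-associated genes were lower, and with a minimum of 1 per 10000 the last of these lists had 11 lower and the list around Gap43 had 3, because the number of genes counted rises without a minimum and drops with a higher one. Over the pseudocounts, totals and centrings, Gap43 ranged from 0.43 to 0.71, Vim from -0.77 to -0.14, Uchl1 from 0.07 to 0.35, Nefm from -0.17 to -0.07, Nefh from -0.33 to -0.02 and Ina from -0.26 to -0.08, with no change of sign, and Sprr1a from 0.0021 to 1.22 with the pseudocount. Nefl, Prph and Basp1 changed sign under the centring by level band only. The median of the members became -0.11 under that centring, while those of the wider lists and of the sympathetic neuron markers kept their sign under the other totals and both centrings. Depth limits Sprr1a and the other genes of low mean most.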
